A study of Mus musculus with 16 samples.

Results

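The genes described are Vldlr, which encodes the very low density lipoprotein receptor, and 8 receptors related to it by family or by function: Lrp8, Lrp1, Lrp2, Lrp5, Lrp6, Sorl1, Lsr and Scarb1. They were chosen by gene symbol from 19938 genes measured on 16 Affymetrix arrays of whole mouse lung, and each of the 9 was represented by 1 probe set. There were 4 arrays in each of 4 groups: Vldlr knockout (KO) mice given house dust mite extract (HDM), KO mice given saline, wild-type (WT) mice given HDM and WT mice given saline. The KO mice are labelled Vldlr-/- and the WT mice B6129SF2/J, and the strain label stands on the WT samples only. All mice were dosed through the nose in a volume of 10 µl, on 5 days a week for 6 weeks, and a dose of HDM, an inhaled allergen, held 25 µg. The sources used here do not say which part of Vldlr was disrupted, how old the mice were, or whether an RNA sample came from 1 animal. P-values therefore measure the spread between these samples.

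Vldlr, Lrp8, Lrp1 and Lrp2 are endocytic receptors of the low density lipoprotein receptor family. They bind ligands such as apolipoprotein E through clusters of cysteine-rich repeats and, through the cytoplasmic tail, recruit adaptors that drive uptake or signalling. Vldlr is best known for supplying fatty acids to heart, muscle and fat, and together with Lrp8 it is the receptor for reelin in the developing brain. Lrp5 and Lrp6 serve as co-receptors for Wnt proteins, Sorl1 is a sorting receptor of the endosome, Lsr is a lipoprotein receptor that also marks tricellular junctions of epithelia, and Scarb1 takes up cholesterol from high density lipoprotein.

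RefSeq promoter windows (GRCm38.p6, 250 bases before to 50 after an annotated start) were at hand for 6 of the 9 genes, 10 windows in all. They were searched for CACGTG, the E-box that clock transcription factors bind, because clock genes differed between the HDM groups, as described below for Sorl1. The motif reads the same on both strands. It was in 1 of the 10 windows, at Sorl1, and in 7.15% of the 32851 windows of all genes. That window and the upstream one of the targeted gene Vldlr are shown 5′ to 3′ on the strand of the gene, with the motif in capitals, at chr9:42124248-42124547 (minus strand) and chr19:27216234-27216533 (plus strand).
Sorl1: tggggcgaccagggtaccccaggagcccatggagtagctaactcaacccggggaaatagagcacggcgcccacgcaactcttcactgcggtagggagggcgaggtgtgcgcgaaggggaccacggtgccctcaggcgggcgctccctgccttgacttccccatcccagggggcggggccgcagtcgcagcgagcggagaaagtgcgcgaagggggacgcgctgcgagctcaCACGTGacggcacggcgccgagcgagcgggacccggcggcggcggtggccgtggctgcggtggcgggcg
Vldlr: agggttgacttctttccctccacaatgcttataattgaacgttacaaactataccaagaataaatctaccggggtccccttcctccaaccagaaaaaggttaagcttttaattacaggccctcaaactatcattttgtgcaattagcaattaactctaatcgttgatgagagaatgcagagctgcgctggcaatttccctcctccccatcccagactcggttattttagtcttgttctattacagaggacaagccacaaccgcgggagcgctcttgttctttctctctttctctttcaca
A match is a run of letters, and no binding was measured.

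All values below are on the log2 scale of the deposited table, so 1 unit is a 2-fold difference, and levels of different genes are not comparable because their probes differ. Probe sets of lung markers were bright, with the surfactant gene Sftpc at 13.96 and the alveolar type 1 gene Ager at 12.86 on average. A log2 summed level is the log2 of the added unlogged levels of a list, so its brightest probe sets weigh most. WT saline 2 and 3 had higher mast cell markers (log2 summed level 10.74 and 10.25) than KO saline arrays (9.64 to 9.83) and WT saline 1 and 4 (9.76 and 9.97). Of 23 genes of the lists below that passed for HDM in WT lungs, 9 still passed without that pair and all 23 kept their sign, and of 2 that passed in the test of different HDM changes 0 still passed by limma. Over all genes the counts without the pair were 1057 against 3505 for HDM in WT lungs and 12 against 160 for different HDM changes. WT HDM arrays were also split, with mast cell sums of 10.01 and 9.89 on arrays 1 and 2 against 11.55 and 11.63 on arrays 3 and 4. Their part in the results on WT HDM lungs was not tested beyond leaving out each array in turn. A gene passed at a Benjamini-Hochberg adjusted p under 0.05 from limma, adjusted over all genes, and SE is limma's standard error. Without allergen, 1 of the 9 genes differed between KO and WT lungs, against 0.231% of all genes. Under HDM 3 did, against 11.7% of all genes. HDM against saline changed 1 of the 9 in KO lungs, against 8.84% of all genes, and 2 in WT lungs, against 17.6% of all genes. These small counts, apart from the targeted gene, stand near the shares of all genes.

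**Figure D1:**
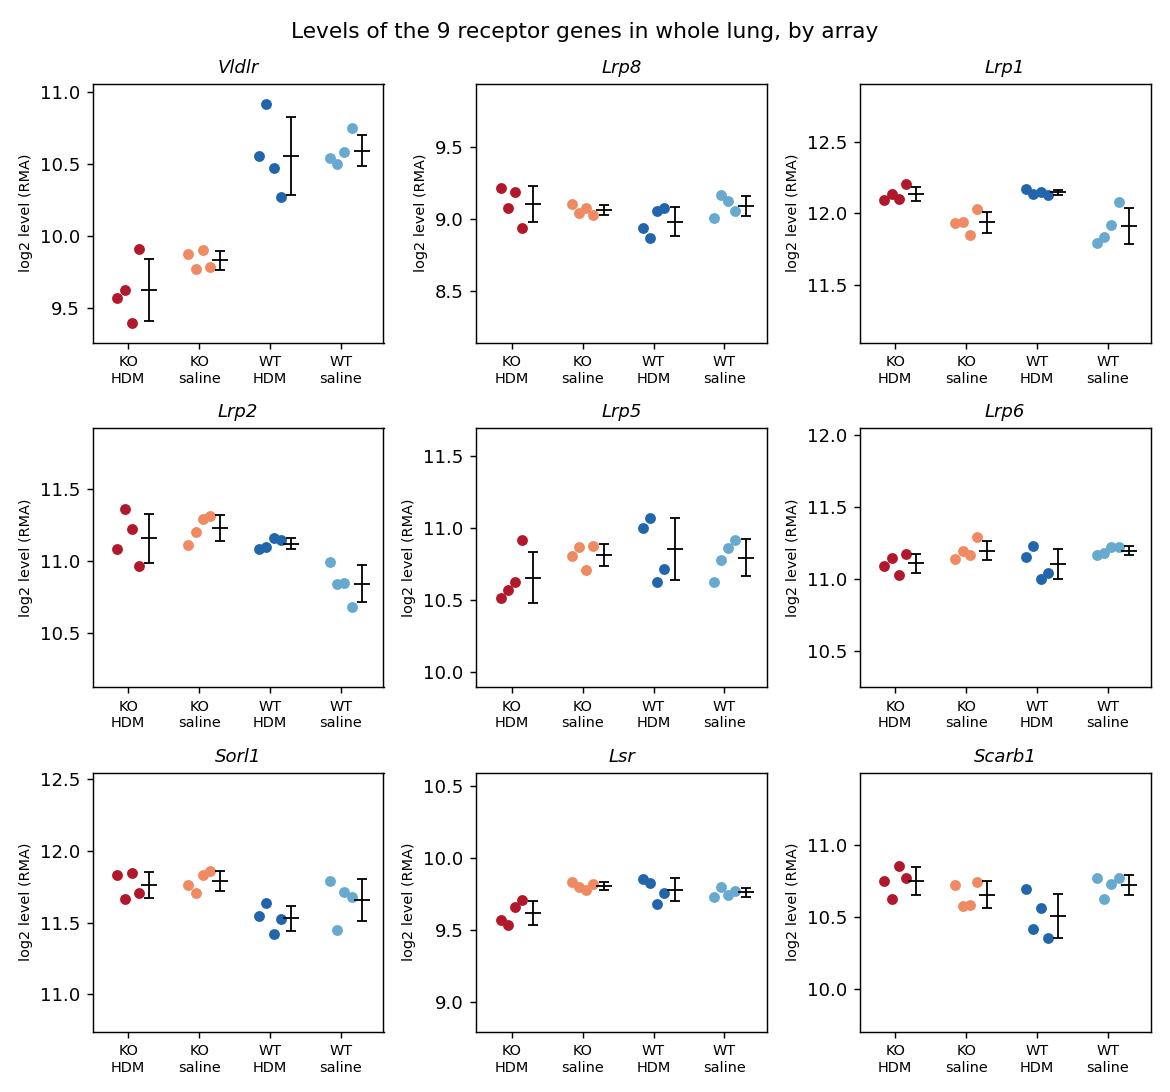
Log2 levels of the 9 genes on each of the 16 arrays (points), with the mean and SD of each group (black, n = 4) to the right of its points; every panel spans the same height. Vldlr separates the genotypes, at 9.40 to 9.91 on KO arrays against 10.27 to 10.92 on WT arrays, and the other genes vary over a narrower range.

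Vldlr, the targeted gene, was lower in KO lungs under both treatments, which matches the genotype labels of all 16 arrays. On KO HDM arrays 1 to 4 it was at 9.57, 9.62, 9.40 and 9.91, against 10.56, 10.92, 10.48 and 10.27 on WT HDM arrays 1 to 4. On KO saline arrays 1 to 4 it was at 9.88, 9.77, 9.90 and 9.79, against 10.54, 10.50, 10.59 and 10.75 on WT saline arrays. No KO array reached the lowest WT array. The level in KO lungs was 52.5% of that in WT lungs under HDM (difference -0.93, SE 0.12, n = 4 per group, adjusted p = 0.000277) and 59.0% under saline (-0.76, SE 0.12, adjusted p = 0.00697). Without both WT saline 2 and 3 the saline difference was -0.81 (SE 0.15) and just missed the threshold (adjusted p = 0.0551), in a fit with 10 genes passing. By p-value Vldlr ranked 12 of 19938 genes under saline and 21 under HDM. Array levels have no absolute zero, and where the probes lie relative to the disrupted part is not given, so 9.40 to 9.91 on KO arrays does not say how much transcript was left.

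HDM did not change Vldlr beyond the spread in either genotype. The difference was -0.21 in KO lungs (SE 0.12, adjusted p = 0.299, 95% interval -0.45 to 0.04) and -0.04 in WT lungs (SE 0.12, adjusted p = 0.832, interval -0.28 to 0.20). From low to high the group means ran from KO HDM (9.63 ± 0.21 SD) through KO saline (9.83 ± 0.07) and WT HDM (10.56 ± 0.27) to WT saline (10.59 ± 0.11), n = 4 each. Neighbours within a genotype overlapped, and the step between the genotypes did not. Both HDM groups spread more than their saline groups, over 0.51 in KO HDM lungs and 0.65 in WT HDM lungs, against 0.13 in KO saline and 0.25 in WT saline lungs.

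Markers of several cell types, heart muscle among them, were lower with Vldlr in KO lungs under HDM. Mouse lung tissue can carry cardiac muscle, which sheathes the pulmonary veins, and heart muscle is a main site of Vldlr expression. Of the 5 genes whose levels followed Vldlr most closely over the 16 arrays, 1 was Myh6, the cardiac myosin heavy chain (Pearson r 0.92), and another was Kcnj3, a potassium channel subunit of the atrium (r 0.94). The others were Ptgfrn (r 0.95), a membrane protein that binds tetraspanins, Lrrc2 (r 0.94) and Cuedc1 (r 0.93). These r values span 2 genotypes and so describe the same separation as the levels, and they carry no test. No detection call was made, and the cardiac gene Nppa, at 8.54 on average, lay below the array medians (8.78 to 8.85). The 6 cardiac muscle markers ran from Nppa up to Actc1 at 11.71 on average. Their log2 summed level was 12.54 to 13.13 in KO HDM lungs, against 12.995 to 13.56 in WT HDM lungs. It was 12.82 to 13.26 in KO saline lungs, against 13.38 to 13.76 in WT saline lungs, where the groups did not overlap. Under HDM 4 of the 6 were lower in KO lungs, with Myh6 at -0.77 (SE 0.15, adjusted p = 0.00552) and the troponin Tnnt2 at -0.66. Under saline 0 of the 6 passed by limma, with a median of -0.47 against -0.01 over all genes, and Myh6 stood at -0.50 (adjusted p = 0.274). Adipose markers had 2 of 4 lower in KO lungs under HDM, with a log2 summed level of 10.18 to 10.46 in KO HDM lungs, against 10.50 to 11.13 in WT HDM lungs, where the groups did not overlap. Of other lists, 3 of 8 alveolar type 1, 3 of 8 endothelial, 4 of 8 alveolar type 2 and 5 of 6 club cell markers were lower in KO lungs under HDM, and 0 of these or of the adipose markers passed under saline by limma. Endothelial Vwf (0.19) and Emcn (0.15) leaned the other way without passing. Other lists had markers higher in KO lungs under HDM: 2 of 6 mast cell, 2 of 6 eosinophil, 2 of 6 mucous cell and 3 of 6 fibroblast markers, with 1 fibroblast marker lower. Over all genes 11.7% passed in that comparison. The part of these lists in the Vldlr result was not tested. In bulk lung, fewer cells of a type and less RNA per cell cannot be told apart.

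With the cardiac marker score as a covariate, an alternative chosen after seeing the data, the Vldlr difference was -0.57 under HDM (SE 0.13, adjusted p = 0.0605) and -0.46 under saline (SE 0.12, adjusted p = 0.17), and neither passed. In that fit the median SE over all genes was 1.48 times that without the covariate under HDM and 1.36 times under saline, and 83 and 20 genes passed. Under saline the marker means of the genotypes did not overlap, so marker level and genotype cannot be told apart there.

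**Figure D2:**
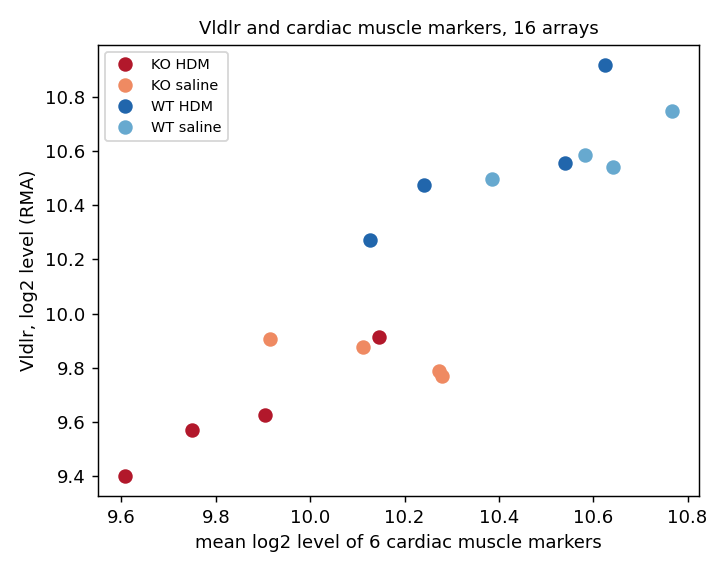
Vldlr (vertical axis) against the mean of 6 cardiac muscle markers (horizontal axis), both as log2 levels, with 1 point for each of the 16 arrays, coloured by group. KO arrays lie at marker means of 9.61 to 10.28 and Vldlr of 9.40 to 9.91, against 10.13 to 10.77 and 10.27 to 10.92 on WT arrays. The genotypes overlap on the marker axis with both treatments pooled. Under saline alone they do not, at 9.91 to 10.28 on KO arrays against 10.385 to 10.77 on WT arrays.

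After the group mean was subtracted from each array, so that genotype and treatment no longer entered, the 5 genes most like Vldlr were others. They were Rapgef5 (r 0.91), Tmem100, Bend7, Hopx and Gria1 (r 0.88 each). Tmem100 is an endothelial gene and Hopx a marker of alveolar type 1 cells. Genes near Vldlr on its chromosome were looked at because a targeted locus can carry flanking DNA of another strain. The 3 nearest measured genes on each side were Dmrt2, Smarca2 and Gm815 on one, and Kcnv2, Pum3 and C030016D13Rik on the other. Under saline 0 of the 6 passed by limma, and C030016D13Rik had an unadjusted p = 0.00386 (-0.23, adjusted p = 0.249). Under HDM 1 passed, the chromatin remodelling gene Smarca2, at 11.93 ± 0.13 in KO lungs and 12.28 ± 0.14 in WT lungs (SD, n = 4 each). Its difference was -0.35 (SE 0.07, adjusted p = 0.00713), and it did not pass with only those 2 groups in the fit (adjusted p = 0.066). Of 115 genes within 10 Mb of Vldlr, 0 passed under saline by limma, against 0.231% of all genes. Under HDM 8 were higher and 14 lower in KO lungs, 19.1% of the 115 against 11.7% of all genes.

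Lrp8, the other reelin receptor and the closest relative of Vldlr, stayed within a narrow band. It lay at 8.94 to 9.21 on KO HDM arrays, against 8.86 to 9.07 on WT HDM arrays, and at 9.03 to 9.10 on KO saline arrays, against 9.01 to 9.17 on WT saline arrays. The groups overlapped in every comparison. The KO minus WT difference was 0.12 under HDM (SE 0.07, adjusted p = 0.252) and -0.03 under saline (SE 0.07, adjusted p = 0.973). The 95% interval under saline ran from -0.17 to 0.11, which bounds a rise of Lrp8 in unchallenged KO lungs at 0.11. Over all 16 arrays its SD was 0.09, larger than that of 21.7% of all genes.

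Reelin itself, encoded by Reln, did not pass in any comparison and was at 9.19 in KO HDM lungs, against 9.34 in WT HDM lungs (-0.15, adjusted p = 0.206). Of 17 measured reelin signalling genes 3 were higher in KO than in WT lungs under HDM and 0 were lower (17.6% of the list, near the 11.7% of all genes), and under saline 0 passed by limma. The 3 were Fyn, a kinase that phosphorylates the adaptor of the receptors (0.27, SE 0.07, adjusted p = 0.0211), Pafah1b1, a partner of dynein (0.26), and the adaptor Crkl (0.20). HDM raised Fyn in KO lungs by 0.41 (adjusted p = 0.00157), and of the 17 genes 1 rose and 0 fell there (5.88%, against 8.84% of all genes). In WT lungs 1 rose and 5 fell (35.3%, against 17.6% of all genes), among them the receptor subunit Grin2a (-0.39) and Crkl (-0.23), and the riser was the kinase Cdk5 (0.38). Cdk5 and Grin2a still passed there without both WT saline 2 and 3, and Crkl did not (-0.25, adjusted p = 0.0721). Several of these proteins, Fyn and Crkl among them, act downstream of many receptors.

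Of 15 measured ligands of the receptors, 0 differed by genotype under saline by limma. Under HDM 1 was higher in KO lungs (6.67%, against 11.7% of all genes), the matrix protein thrombospondin 1 (Thbs1), at 12.46 in KO lungs and 11.92 in WT lungs (0.54, SE 0.09, adjusted p = 0.00228). HDM raised Thbs1 in KO lungs by 0.71 (adjusted p = 0.000126), the difference in WT lungs was 0.03, and the test of the difference between these changes passed (0.69, SE 0.13, adjusted p = 0.0232), but not without both WT saline 2 and 3 (0.61, adjusted p = 0.126). In WT lungs 3 ligands rose and 2 fell (33.3% of the list, against 17.6% of all genes). Lipoprotein lipase (Lpl) rose by 0.50, Apoc1 by 0.43 and Apoe by 0.25 (adjusted p = 0.0488), while A2m was at -0.54 and Clu at -0.44. Lpl, A2m and Clu still passed without both WT saline 2 and 3, and Apoc1 (0.40, adjusted p = 0.104) and Apoe (0.20, adjusted p = 0.266) did not. In KO lungs Thbs1 and the protease Plau (0.67) rose and Clu fell by 0.36 (20% of the list, against 8.84% of all genes). Apoe did not pass there (0.02, adjusted p = 0.897).

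Lrp1, a large scavenging and signalling receptor of macrophages, fibroblasts and smooth muscle, was higher after HDM. It was at 12.17, 12.14, 12.15 and 12.13 on WT HDM arrays, against 11.80, 11.84, 11.92 and 12.08 on WT saline arrays. On KO HDM arrays it was at 12.10, 12.14, 12.10 and 12.21, against 11.93, 11.94, 11.85 and 12.03 on KO saline arrays. In both genotypes the lowest HDM array was above the highest saline array. In WT lungs the rise was 0.24 (SE 0.06, n = 4 per group, adjusted p = 0.0156), and the call ended without WT saline 1 (0.20, adjusted p = 0.0558) and without both WT saline 2 and 3 (0.21, adjusted p = 0.132). In KO lungs the difference was 0.20 (SE 0.06, adjusted p = 0.0515) and just missed the threshold. It passed with equal array medians, either filter on dim genes, the robust variance trend or array weights (adjusted p = 0.0356 to 0.0498), and not with quantile normalization or the clock score. The HDM changes of the genotypes differed by -0.04 (SE 0.09, adjusted p = 0.861). Groups without overlap were seen for 2 of the 9 genes in WT lungs (23.5% of all genes) and 2 in KO lungs (14.0% of all genes).

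Markers of interstitial macrophages and monocytes were also higher after HDM. In WT lungs 3 of 6 rose and 0 fell, with a log2 summed level of 12.66 to 13.37 under HDM against 12.48 to 12.71 under saline. In KO lungs 4 of 6 rose and 1 fell, with 12.93 to 13.48 under HDM against 12.51 to 12.77 under saline. Over all genes 17.6% passed for HDM in WT lungs and 8.84% in KO lungs. On WT HDM arrays 1 and 2 the sums were 12.78 and 12.66, at or near the saline range, and on arrays 3 and 4 they were 13.37 and 13.33. Lrp1 was at 12.17 and 12.14 on arrays 1 and 2 and at 12.15 and 12.13 on arrays 3 and 4. In KO lungs 3 of 6 smooth muscle markers rose and 0 fell, and 3 of 6 fibroblast markers rose and 1 fell. In WT lungs 1 smooth muscle marker rose and 1 fell, and 0 of the 6 fibroblast markers passed by limma. The part of these lists in the Lrp1 result was not tested. The genes most like Lrp1 over the 16 arrays were Gak, a kinase of clathrin uncoating (r 0.91), and Tmem14c (r 0.91).

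Lrp2, or megalin, an endocytic receptor of absorptive epithelia that is also made in the alveolar epithelium, was lowest in unchallenged WT lungs. It was at 11.11, 11.20, 11.30 and 11.31 on KO saline arrays, against 10.998, 10.84, 10.85 and 10.69 on WT saline arrays. These groups did not overlap, as was the case for 2 of the 9 genes and 6.54% of all genes. KO lungs had 131% of the WT level under saline (0.39, SE 0.08, n = 4 per group), which ranked 49 of 19938 by p and narrowly missed the threshold (adjusted p = 0.0579). It passed with array weights (0.37, adjusted p = 0.0194), with only the 2 groups compared in the fit (adjusted p = 0.0439) and without WT saline 1 (0.44, adjusted p = 0.0319). Without both WT saline 2 and 3 it was 0.39 (SE 0.11, adjusted p = 0.337). Under HDM it was at 11.08, 11.36, 11.22 and 10.97 on KO arrays, against 11.08, 11.10, 11.16 and 11.15 on WT arrays, and the groups overlapped (0.04, SE 0.08, adjusted p = 0.819).

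HDM raised Lrp2 in WT lungs by 0.28 (SE 0.08, adjusted p = 0.0268), and every WT HDM array was above every WT saline array. That call ended without each of WT HDM 3 and 4 and WT saline 2, 3 and 4, where the rise was between 0.23 and 0.28 and the adjusted p between 0.0515 and 0.0743, and without both WT saline 2 and 3 (0.28, adjusted p = 0.129). It also ended with quantile normalization (0.23, adjusted p = 0.058) and with the clock score described below for Sorl1 as a covariate (0.45, SE 0.17, adjusted p = 0.318). In KO lungs the difference was -0.07 (SE 0.08, adjusted p = 0.634). The 2 HDM changes differed by -0.35 (SE 0.11, unadjusted p = 0.00644, adjusted p = 0.142). Of 8 alveolar type 2 markers, 3 rose and 0 fell with HDM in WT lungs (37.5%, against 17.6% of all genes). Sftpc (0.005) and Abca3 (-0.011) were among those that did not pass. Their log2 summed level was 16.35 to 16.41 under HDM against 16.23 to 16.26 under saline. Under saline 0 of these 8 passed between genotypes by limma, at 16.28 to 16.35 in KO lungs and 16.23 to 16.26 in WT lungs. Under HDM 4 of the 8 were lower and 0 higher in KO than in WT lungs (50%, against 11.7% of all genes). Lrp2 did not pass in that comparison (0.04). The part of these markers in the Lrp2 result was not tested. Cubn and Amn, partners of megalin in uptake, passed in no comparison, and Mfsd2a, a lipid transporter, and Zfp938 were most like Lrp2 over the 16 arrays (r 0.86 each).

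Lrp5 and Lrp6, the Wnt co-receptors, did not pass in any of the 5 comparisons. Lrp6 varied least of the 9 genes, with an SD of 0.08 over the 16 arrays, and its KO minus WT difference was 0.00 under HDM and under saline (95% interval -0.12 to 0.12 in both). Lrp5 lay at 10.52 to 10.92 on KO HDM arrays, against 10.63 to 11.08 on WT HDM arrays. The groups overlapped, through KO HDM 4 on one side and WT HDM 3 and 4 on the other. The difference was -0.20 (SE 0.10, adjusted p = 0.226), and it passed without KO HDM 4 (-0.28, adjusted p = 0.0494). Among 32 Wnt ligand, receptor and inhibitor genes 2 were lower in KO than in WT lungs under HDM, the ligand Rspo1 (-0.53, SE 0.08, adjusted p = 0.00172) and the receptor Fzd7 (-0.33), which is 6.25% of the list against 11.7% of all genes, and 0 differed under saline by limma. In WT lungs HDM raised 3, among them Rspo1 (0.28) and Fzd7 (0.24), and 2 fell, Fzd6 (-0.40) and Dkk4 (-0.26). These 5 are 15.6% of the list, near the 17.6% of all genes, and 0 of them passed by limma without both WT saline 2 and 3. In KO lungs 1 rose, the scaffold Axin1 (0.24), and 0 fell (3.12% of the list, against 8.84% of all genes).

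Sorl1, which sorts proteins between endosomes and the Golgi apparatus, was higher in KO than in WT lungs under HDM. It was at 11.83, 11.66, 11.85 and 11.70 on KO HDM arrays, against 11.55, 11.63, 11.42 and 11.52 on WT HDM arrays. The lowest KO array lay just above the highest WT array, a separation seen for 2 of the 9 genes and 10.8% of all genes. The level in KO lungs was 117% of that in WT lungs (0.23, SE 0.07, n = 4 per group, adjusted p = 0.0486). The call ended when any 1 of 7 of the 8 arrays compared was left out (0.19 to 0.26, adjusted p = 0.0512 to 0.144), and held without KO HDM 4. It ended as well with only the 2 groups in the fit (adjusted p = 0.0944). Under saline Sorl1 was at 11.76, 11.70, 11.83 and 11.86 on KO arrays, against 11.79, 11.45, 11.71 and 11.68 on WT arrays. It did not pass there (0.13, SE 0.07, adjusted p = 0.735).

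Clock genes differed between the same HDM arrays. Of 10 clock genes of one phase, 7 were lower in KO than in WT lungs under HDM, and of 3 of the opposite phase 2 were higher. For all genes the share was 11.7%. HDM raised 7 of the 10 in WT lungs, against 17.6% of all genes, and 1 in KO lungs, against 8.84%. Of the 3, HDM lowered 1 in WT lungs and raised 1 in KO lungs. Between genotypes under saline 0 of the 10 passed by limma. The log2 summed level of the 10 was 13.62 to 13.97 in KO HDM lungs, against 13.99 to 14.46 in WT HDM lungs. In saline lungs it was 13.55 to 13.84 (KO) and 13.77 to 13.89 (WT), so WT HDM lungs stood above the other groups. The sum of the 3 was 11.90 to 12.04 in KO HDM lungs, against 11.69 to 11.83 in WT HDM lungs. With a clock score as a covariate, the Sorl1 difference under HDM was 0.34 (SE 0.16, adjusted p = 0.999). The Vldlr difference was -0.67 (SE 0.25, adjusted p = 0.965). The median SE of that comparison was 2.21 times larger, and 3 genes passed. Clock scores did not overlap between KO HDM (-0.985 to -0.221) and WT HDM arrays (0.761 to 2.357). Score and genotype therefore cannot be told apart under HDM. On WT saline arrays the scores were -1.252 to -0.125, so score and HDM cannot be told apart in WT lungs. Under saline Vldlr still passed with the score (-0.75, SE 0.11, adjusted p = 0.008). Of 19 measured chaperones, adaptors and turnover genes of the receptors, 3 were higher in KO lungs under HDM and 0 lower (15.8% of the list, near the 11.7% of all genes). They were Gga3 (0.40, SE 0.07, adjusted p = 0.00272) and Gga2 (0.32), adaptors of Golgi sorting that bind Sorl1, and Adam10 (0.24), a protease that sheds receptor ectodomains. HDM raised 1 in KO lungs (5.26% of the list, against 8.84% of all genes), and 0 passed in WT lungs by limma. The 1 was Snx17 (0.21), which returns receptors of this family to the cell surface.

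Scarb1, the receptor for high density lipoprotein, was also higher in KO than in WT lungs under HDM. It was at 10.75, 10.62, 10.85 and 10.77 on KO HDM arrays, against 10.69, 10.41, 10.56 and 10.35 on WT HDM arrays, and the groups overlapped through KO HDM 2 and WT HDM 1. The difference was 0.24 (SE 0.07, n = 4 per group, adjusted p = 0.0426). The call ended without each of KO HDM 1, 3 and 4 and WT HDM 2 and 4 (0.19 to 0.24, adjusted p = 0.0538 to 0.132), and with only the 2 groups in the fit (adjusted p = 0.133). Under saline Scarb1 was at 10.72, 10.57, 10.58 and 10.74 on KO arrays, against 10.76, 10.62, 10.73 and 10.77 on WT arrays (-0.07, SE 0.07, adjusted p = 0.924). In WT lungs the HDM difference of -0.22 just missed the threshold (SE 0.07, adjusted p = 0.052). It passed with quantile normalization (-0.26, adjusted p = 0.0319), either filter on dim genes (adjusted p = 0.0464 and 0.0445) and array weights (adjusted p = 0.0307). In KO lungs the HDM difference was 0.09 (adjusted p = 0.49). The 2 HDM changes differed by 0.31 (SE 0.11, unadjusted p = 0.00872, adjusted p = 0.159). The cholesterol exporters Abcg1 (-0.35, SE 0.08, adjusted p = 0.0141) and Abca1 (-0.28) were lower in KO than in WT lungs under HDM. They were the 2 of 6 Scarb1 partners that passed (33.3%, against 11.7% of all genes). HDM raised Abcg1 in WT lungs by 0.37, and its HDM changes differed by -0.52 between genotypes (adjusted p = 0.0483). Without both WT saline 2 and 3, Abcg1 still rose in WT lungs (0.44), and the difference of its changes no longer passed (-0.60, adjusted p = 0.115).

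Lsr, the lipoprotein receptor of epithelial junctions, fell after HDM in KO lungs. It was at 9.57, 9.53, 9.66 and 9.70 on KO HDM arrays, against 9.83, 9.80, 9.77 and 9.82 on KO saline arrays, without overlap. The difference was -0.19 (SE 0.05, n = 4 per group, adjusted p = 0.0339), or 87.8% of the saline level. The call ended without each of KO HDM 1, 2 and 3 and KO saline 1, 2 and 4 (-0.16 to -0.20, adjusted p = 0.0541 to 0.107). It ended as well with only the 2 groups in the fit (adjusted p = 0.077). In WT lungs it was at 9.85, 9.83, 9.68 and 9.75 under HDM, against 9.73, 9.80, 9.74 and 9.77 under saline (0.02, SE 0.05, adjusted p = 0.828). Between genotypes under HDM the difference was -0.16 (SE 0.05, adjusted p = 0.0555) and just missed the threshold. It passed with quantile normalization (adjusted p = 0.0497) and either filter on dim genes (adjusted p = 0.042 and 0.0375). With the clock score it was -0.002 (adjusted p = 0.999). The HDM changes differed by -0.21 (SE 0.08, unadjusted p = 0.0134, adjusted p = 0.188).

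Markers of several epithelial cell types moved with Lsr in KO lungs. In KO lungs HDM lowered 4 of 6 club cell markers, with a log2 summed level of 15.03 to 15.51 under HDM against 15.56 to 15.63 under saline. It lowered 4 of 7 ciliated cell markers, at 12.87 to 13.26 under HDM against 13.55 to 13.71 under saline. Alveolar type 1 markers fell there too, 5 of 8 with 0 higher, and 0 of 8 alveolar type 2 markers passed by limma. Over all genes 8.84% passed there. Scgb3a2, a secretoglobin of club cells, stood at -1.05 and Tppp3, a tubulin-binding protein of ciliated cells, at -0.73. The gene most like Lsr over the 16 arrays was Dynlrb2, a dynein chain of cilia (r 0.92), followed by Perp, a desmosome protein (r 0.91). The level of the club and ciliated markers was also used as a covariate, chosen after seeing the data. With it the HDM difference of Lsr in KO lungs was -0.10 (SE 0.08, adjusted p = 0.45). The median SE over all genes was 1.49 times larger in that fit, and 263 genes passed. Mean marker levels did not overlap between KO HDM (10.58 to 11.004) and KO saline arrays (11.15 to 11.29). Marker level and HDM therefore cannot be told apart in KO lungs. Of 9 partners of Lsr at tight junctions 2 fell in KO lungs, Ocln (-0.35) and the tricellular protein Ildr1 (-0.20). With the 1 that rose, 33.3% of the list passed there, against 8.84% of all genes. For HDM in WT lungs 11.1% passed, against 17.6% of all genes. The claudin Cldn1 rose in both genotypes, by 0.75 in KO lungs (adjusted p = 0.00021) and by 0.71 in WT lungs (adjusted p = 0.000439, and 0.00284 without both WT saline 2 and 3).

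**Figure D3:**
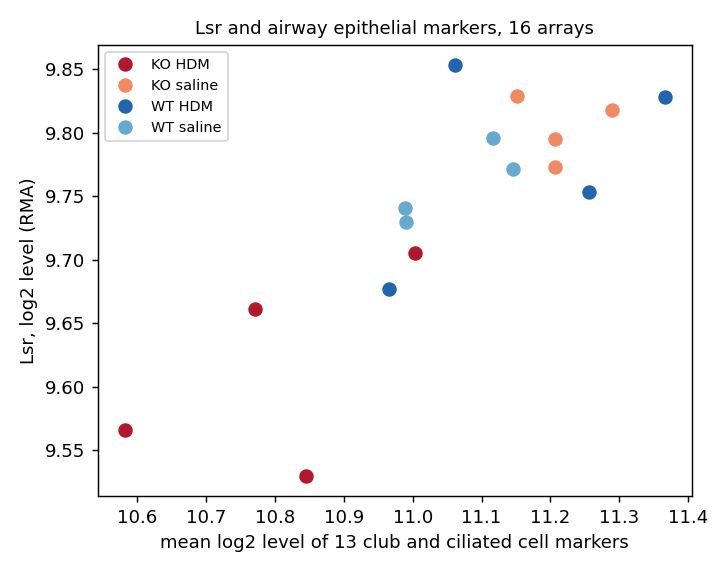
Lsr (vertical axis) against the mean of 13 club and ciliated cell markers (horizontal axis), both as log2 levels, 1 point per array, coloured by group. The KO HDM arrays have Lsr at 9.53 to 9.70 and marker means of 10.58 to 11.004, against 9.77 to 9.83 and 11.15 to 11.29 on the KO saline arrays.

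In the test of whether HDM acted differently in the genotypes, 0 of the 9 genes passed by limma, against 0.802% of all genes, and 3 had an unadjusted p under 0.05 (Lrp2, Scarb1 and Lsr). Leaving out both WT saline 2 and 3 put Lrp2 at -0.35 (adjusted p = 0.356), Scarb1 at 0.36 (adjusted p = 0.296) and Lsr at -0.22 (adjusted p = 0.398). Among 21 other lipoprotein and scavenger receptors the strongest changes came with HDM in both genotypes. The oxidised lipoprotein receptor Olr1 rose by 1.16 in KO lungs (SE 0.26, adjusted p = 0.00811) and by 1.26 in WT lungs (SE 0.26, adjusted p = 0.00412). The macrophage scavenger receptor Msr1 rose by 0.91 in KO lungs and by 0.80 in WT lungs. Lrp12 rose by 0.52 in KO lungs and by 0.69 in WT lungs. These were the 3 of 21 that rose in KO lungs (14.3%, against 8.84% of all genes). In WT lungs Lrp10 (0.33) rose too (19% of the list, near the 17.6% of all genes). Olr1 and Lrp12 still passed in WT lungs without both WT saline 2 and 3, and Msr1 (0.71, adjusted p = 0.174) and Lrp10 (0.34, adjusted p = 0.0677) did not. Between genotypes 0 of the 21 passed under saline by limma. Under HDM 2 were lower in KO lungs (9.52%, near the 11.7% of all genes). They were Lrp4 (-0.29, adjusted p = 0.0409) and the sorting receptor Sort1 (-0.25, adjusted p = 0.0316), a relative of Sorl1.

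**Figure D4:**
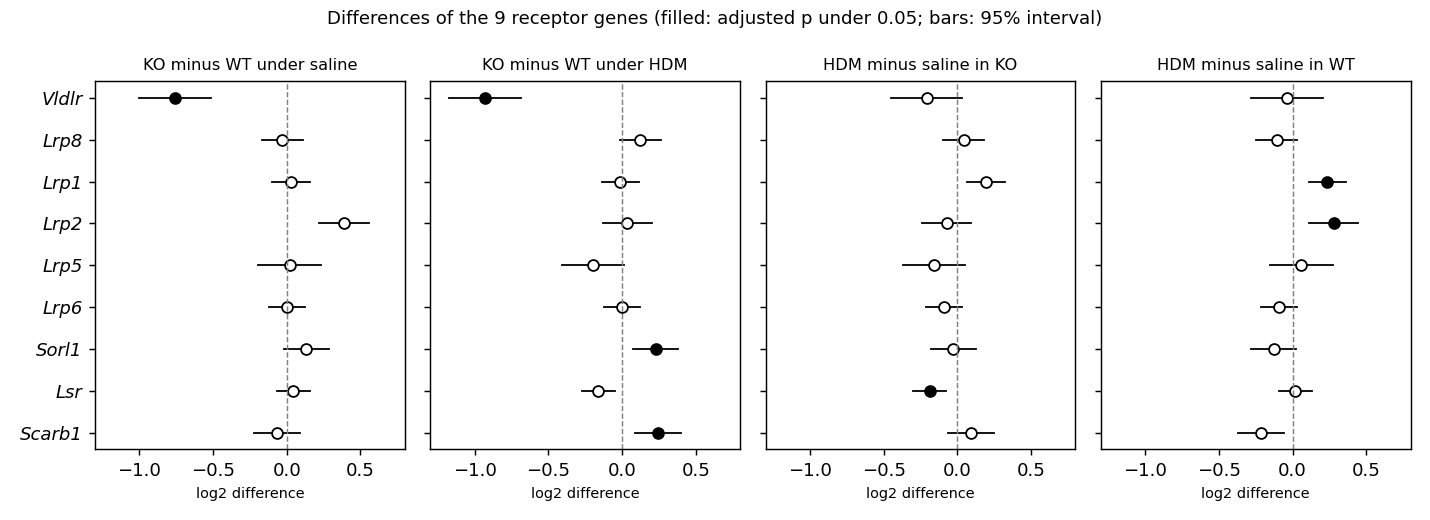
Log2 differences of the 9 genes in the 4 comparisons of groups (points, limma, 4 arrays per group) with 95% intervals (lines); filled points passed at an adjusted p under 0.05. Vldlr stands apart at -0.76 and -0.93 in the genotype comparisons, and the other filled points lie between -0.19 and 0.28.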

How the data were processed

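Biotin-labelled sense cDNA from lung RNA was measured on Affymetrix arrays, per the labels' protocols. The deposited values are log2, 1 per probe set. The submitters' processing notes name RMA and Affymetrix Expression Console, with versions not given in the sources used here. RMA subtracts background, equalises the arrays and combines a set's probes. Array medians lay between 8.78 and 8.85, and precision is limited by the 4 arrays per group.

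Of 35556 probe sets, 21789 had 1 gene symbol in the platform annotation, 1621 several and 12146 none, and 21698 matched GRCm38.p6 by gene ID. For the 999 genes with several, the probe set with the highest mean was kept, which left 19938 genes without a filter on dim ones. limma 3.58.1 in R 4.3.3 fitted 4 group means (12 residual degrees of freedom) and 5 two-sided comparisons, the last of which set the HDM change in KO lungs against that in WT lungs. The fit was tested on simulated data.

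Genes named beyond the 9 were the neighbours, the genes with the highest correlation (5 for Vldlr, 2 for others, predicted genes left out), and per list at most the 4 largest changes that passed. The members, lists and alternatives were chosen with earlier results of these data known. Alternatives covered normalization, filters, variance model, array weights, groups fitted, a block for the replicate number, left-out arrays, and a clock score. Scores are mean standardised levels of marker genes. For the clock score, the mean of the 3 clock genes of the opposite phase was subtracted from the mean of the 10.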

Additional observations from a re-analysis of the deposited data

How the results depend on the processing

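The Vldlr difference between genotypes kept its sign in every alternative. Leaving out 1 array gave -0.792 to -0.708 under saline and -1.025 to -0.808 under HDM, all passing. It did not pass with the cardiac score (-0.456 saline, -0.572 HDM), without both WT saline 2 and 3 (-0.812) or, under HDM, with the clock score (-0.669). With 1 array left out, its HDM difference ran from -0.304 to -0.132 in KO and from -0.16 to 0.056 in WT, and the difference of the changes from -0.265 to -0.048. The count of the 9 genes called under saline was 2 with array weights or only the groups compared, 0 without both WT saline arrays, and 1 to 2 with 1 array left out. Between genotypes under HDM it was 1 with only the groups compared, 0 with the clock score and 1 to 4 with 1 array left out. For HDM in KO it was 2 with equal medians, either filter, the variance trend or array weights, 0 with only the groups compared, and 0 to 1 with 1 array left out. For HDM in WT it was 0 without both WT saline arrays or with the clock score, and 1 to 3 with 1 array left out. For the difference of the changes it stayed at 0.

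Signs turned in differences that passed in neither setting. Without both WT saline arrays, KO minus WT under saline was 0.026 for Lrp8, -0.001 for Lrp1, 0.071 for Dmrt2 and 0.046 for Gm815, and the difference of changes was -0.002 for Lrp6. Quantile normalization gave -0.004 for Lrp6 (saline), -0.013 for Kcnv2 (KO minus WT, HDM) and -0.02 for Lsr (HDM in WT). Array weights gave -0.008 for Lrp6 (saline), 0.009 for Sorl1 (HDM in KO), and -0.015 for Lrp5 and -0.002 for Lsr (HDM in WT). Equal medians gave -0.001 for Lrp6 (difference of changes). The clock score gave, between genotypes under HDM, -0.062 for Lrp8, 0.031 for Lrp1, -0.132 for Lrp2, 0.165 for Lrp5 and -0.118 for Gm815. It gave 0.075 for Lrp8, -0.298 for Lrp5 and -0.14 for Lsr for HDM in WT, and differences of changes of 0.077 for Vldlr, -0.023 for Lrp8, 0.001 for Lrp1 and 0.125 for Lrp5. With 1 array left out, KO minus WT under saline ran from -0.009 to 0.085 for Lrp1, -0.038 to 0.059 for Lrp5, -0.031 to 0.02 for Lrp6 and -0.069 to 0.009 for Dmrt2. Under HDM it ran from -0.035 to 0.002 for Lrp1, -0.031 to 0.101 for Lrp2, -0.033 to 0.044 for Lrp6 and -0.04 to 0.048 for Kcnv2. HDM in KO ran from -0.057 to 0.004 for Sorl1, HDM in WT from -0.014 to 0.134 for Lrp5 and -0.007 to 0.052 for Lsr, and the difference of changes from -0.035 to 0.042 for Lrp6. The causes were not tested.

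Over all genes, the saline count of 46 was 19 with the 50th percentile filter, 110 with array weights, 98 with only the groups compared and 10 without both WT saline arrays. The HDM genotype count of 2327 was 390 with only the groups compared and 3 with the clock score. For HDM in KO, 1763 was 2938 with array weights. For HDM in WT, 3505 was 2289 with the 50th percentile filter, 1057 without both WT saline arrays and 24 with the clock score. For the difference of changes, 160 was 680 with array weights, 258 with the block, 12 without both WT saline arrays and 1 with the clock score.

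After group means were subtracted, same-numbered arrays gave 24 correlations of -0.276 to 0.333, 7 of them over 0.1. Differently numbered arrays were not compared, so whether equal numbers share a batch or handling was not tested. With the replicate block, Vldlr was at -0.76 (adjusted p = 0.017) under saline and -0.929 (adjusted p = 0.000877) under HDM. Sorl1 between genotypes under HDM (adjusted p = 0.0504) and Lsr for HDM in KO (adjusted p = 0.0501) no longer passed, while Lrp1 for HDM in KO (adjusted p = 0.0421) and Scarb1 for HDM in WT (adjusted p = 0.0366) did.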
